A study of Mus musculus with 7 samples.

Results

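The genes described here are 10 heterochromatin factors that restrain retrotransposons through histones: Trim28, Setdb1, Ehmt1, Ehmt2, Suv39h2, Cbx1, Cbx5, Atrx, Hells and Prmt5, of which Prmt5 is also counted among piRNA pathway components. They were taken by symbol from the gene table, and all 10 were found, each on a single row, among 24739 rows. RNA was sequenced from whole testes of C57BL/6 mouse embryos at embryonic day 14.5, with 3 libraries from wild-type embryos and 4 from Glis3 mutants, each library from the paired testes of a single embryo. The mutants were homozygous for the Glis3 zf5 allele, a germline deletion that removes exon 4 with neighbouring intron sequence and so disrupts the DNA-binding domain of the zinc finger factor GLIS3 in every cell. Ribosomal RNA was depleted and random primers were used, so unspliced RNA was read along with mRNA, and strand was not recorded.

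In a whole testis, fewer cells of a type and less RNA per cell cannot be told apart. Levels are in FPKM, read fragments scaled to transcript length and to library size. Glis3 itself, whose other exons the allele leaves in place, was at 7.63, 6.89 and 2.91 FPKM in wild-type embryos (replicates 1, 2 and 3 in turn), against 3.87, 3.26, 2.90 and 2.66 FPKM in the mutants. The library labelled wild-type replicate 3 was therefore at the mutant level by this measure, and its genotype label is in doubt. It was kept in the group its label gives. A list of 16 germ cell markers, among them Ddx4 and Dazl, showed the same: its mean log2(FPKM + 0.5) was 5.25 for the first wild-type embryo, 5.31 for the second and 3.70 for the one labelled replicate 3, where the mutants had 3.44 to 4.16. Glis3 reads in introns, given below, differed from this. By them the library labelled replicate 3 lay above every mutant and below the other wild-type libraries. All 16 markers had a lower mean in the mutants, and none was at 0 in any library. Their summed level was 656 to 1623 FPKM in wild-type libraries and 539 to 774 FPKM in mutants. The list holds Ddx4, Mael, Tdrd1, Tdrd5, Tdrd9, Nanos2 and Nanos3, which the paper reports as reduced in these mutants. It is therefore not a measure of germ cell number alone. The paper reports germ cell counts at this stage as not different, although its mean count was lower in mutants. Its discussion also dates the first detected germ cell loss to this stage. It reports Boll, Hormad1 and Lefty2 as unchanged. The members' fold changes, the counts of calls, the ratios and the retrotransposon groups are given with and without the library labelled wild-type replicate 3. The 10 Sertoli cell markers, which define the supporting cells of the testis cords, were present at 587 to 774 FPKM summed in wild-type and 754 to 885 FPKM in mutant libraries.

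Heterochromatin that silences retrotransposons is built in steps. KRAB zinc finger proteins bind the elements and recruit TRIM28, which brings SETDB1 to place trimethylation on lysine 9 of histone H3 (H3K9me3). EHMT2 (G9a) and EHMT1 (GLP) work as a dimer that places the mono- and dimethyl forms of the mark, SUV39H2 trimethylates pericentromeric repeats, and the HP1 proteins encoded by Cbx1 (HP1-beta) and Cbx5 (HP1-alpha) read the mark. ATRX deposits histone H3.3 at repeats together with DAXX, HELLS (LSH) remodels nucleosomes to allow DNA methylation, and PRMT5 methylates histone arginines and represses transposons in primordial germ cells. The male germ cells of this stage have erased most of their DNA methylation, which makes histone-based silencing of interest in them.

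Promoters are shown for the 5 members whose mutant libraries all lay below all wild-type libraries (values follow), because these members moved the same way. Each window holds 250 bases before and 50 bases after the annotated start nearest to the RefSeq start of the gene. Windows are from GRCm38.p6, the patch level of the mm10 build of the data, written 5′ to 3′ on the strand of the gene. The annotated start lies 18 bases from the RefSeq start for Ehmt2, 36 for Cbx5 and 1 for Cbx1, and at it for the other members. All 10 members matched a window. Capitals mark every match, on either strand, to a GC box (GGGCGG), the box named CCAAT after its letters, an E2F-type site (TTTCCCGC, TTTGGCGC, TTTCGCGC or TTTGCCGC) or the core of the GLIS site (TGGGGGGT).
Hells, chr19:38930740-38931039, plus strand: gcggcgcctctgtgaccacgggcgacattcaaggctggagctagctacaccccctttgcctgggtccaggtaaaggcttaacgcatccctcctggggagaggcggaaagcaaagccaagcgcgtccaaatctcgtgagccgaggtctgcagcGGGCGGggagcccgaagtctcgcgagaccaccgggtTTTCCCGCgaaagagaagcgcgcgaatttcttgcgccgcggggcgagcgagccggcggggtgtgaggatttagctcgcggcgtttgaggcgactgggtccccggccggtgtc
Suv39h2, chr2:3474937-3475236, minus strand: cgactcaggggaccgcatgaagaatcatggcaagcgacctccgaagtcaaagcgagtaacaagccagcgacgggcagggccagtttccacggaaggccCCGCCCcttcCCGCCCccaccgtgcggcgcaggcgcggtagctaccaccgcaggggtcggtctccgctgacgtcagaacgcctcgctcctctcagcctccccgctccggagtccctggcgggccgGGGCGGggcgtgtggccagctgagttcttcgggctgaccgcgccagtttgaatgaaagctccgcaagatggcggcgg
Setdb1, chr3:95357153-95357452, minus strand: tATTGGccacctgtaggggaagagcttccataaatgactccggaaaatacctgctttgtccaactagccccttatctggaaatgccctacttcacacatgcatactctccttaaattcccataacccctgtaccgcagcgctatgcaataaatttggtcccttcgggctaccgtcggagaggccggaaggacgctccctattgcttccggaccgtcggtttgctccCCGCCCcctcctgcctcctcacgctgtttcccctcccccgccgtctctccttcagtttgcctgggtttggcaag
Ehmt2, chr17:34898224-34898523, plus strand: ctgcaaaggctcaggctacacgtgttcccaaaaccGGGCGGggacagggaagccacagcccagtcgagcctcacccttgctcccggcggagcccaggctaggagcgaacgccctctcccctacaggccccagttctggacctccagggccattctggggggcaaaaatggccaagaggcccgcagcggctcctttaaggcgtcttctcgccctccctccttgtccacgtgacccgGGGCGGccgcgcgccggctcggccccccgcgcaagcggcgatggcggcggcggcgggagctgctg
Prmt5, chr14:54517421-54517720, minus strand: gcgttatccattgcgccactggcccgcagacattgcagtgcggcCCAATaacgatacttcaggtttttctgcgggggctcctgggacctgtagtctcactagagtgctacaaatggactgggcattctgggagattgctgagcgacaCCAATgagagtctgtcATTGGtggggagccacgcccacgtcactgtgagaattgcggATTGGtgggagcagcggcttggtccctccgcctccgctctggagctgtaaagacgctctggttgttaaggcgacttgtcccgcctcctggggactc

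The GLIS core matched the window of 0 of 10 members, and 1.53% of all 32851 promoter windows in the table held it. The E2F-type site matched 1 member, Hells, starting 62 bases before the start of the gene, against 2.27% of all windows. GC boxes matched 8 members, all but Atrx and Prmt5, against 35.7% of all windows. CCAAT boxes matched 4 members, Setdb1, Cbx5, Atrx and Prmt5, against 37.4% of all windows, and both Prmt5 and Atrx held 4 of them. The 10 windows were rich in CpG, with 11 CG dinucleotides in Atrx and 34 in both Hells and Ehmt1, where the median window held 7. These matches describe letters only and say nothing about whether a factor binds there.

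All 10 members were expressed in every library, with means between the 57.8 and 97.6 percentiles of the genes tested. FPKM is per length, so genes can be ranked. Averaged over the 7 libraries, Trim28 was highest at 212 FPKM and Suv39h2 lowest at 14.0 FPKM, and between them stood Cbx5 (108), Hells (86.5), Cbx1 (76.9), Ehmt2 (57.7), Atrx (56.2), Setdb1 (40.4), Ehmt1 (28.5) and Prmt5 (27.4 FPKM). The ranges of neighbours over the libraries did not touch at 4 of the 9 steps: between Trim28 and Cbx5, between Atrx and Setdb1, between Setdb1 and Ehmt1, and between Prmt5 and Suv39h2. Ehmt2 was above Atrx in 2 of 7 libraries and Ehmt1 above Prmt5 in 4 of 7, so neither of these pairs was ordered. In wild-type testes the spread between embryos was wide for Trim28 (SD 53.0 around 222.7 FPKM, n = 3) and narrow for Cbx5 (SD 1.46 around 108.7 FPKM, n = 3).

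All 10 members had a lower mean in Glis3 mutant testes, by 0.01 to 0.40 on the log2(FPKM + 0.5) scale, and in 5 of them, Hells, Prmt5, Ehmt2, Suv39h2 and Setdb1, all 4 mutant libraries lay under the lowest wild-type library. No member passed the test across all genes. In limma over the 13988 genes averaging 0.5 FPKM or more, 0 of 10 members had a Benjamini-Hochberg adjusted p under 0.05, where 0.00715% of genes (1 gene) did in either direction. Glis3 itself had a limma adjusted p of 0.27. Cuffdiff in the paper, run on the reads, called far more genes at this threshold. A fit that calls so few genes cannot show that the members are unchanged. At an unadjusted p under 0.05, 5 of 10 members were lower, against 8.79% of all genes, and 0 were higher, against 8.21%. The 5 members whose groups did not overlap were the same 5, against 7.59% of all genes lower without overlap. The median log2 fold change of the 10 was -0.17, against 0.01 for all genes tested, of which 47.9% were below 0. Centring each library on its median moved the median of all genes to 0.02 and left 9 of 10 members below 0, with Cbx5 at 0.00.

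**Figure D1:**
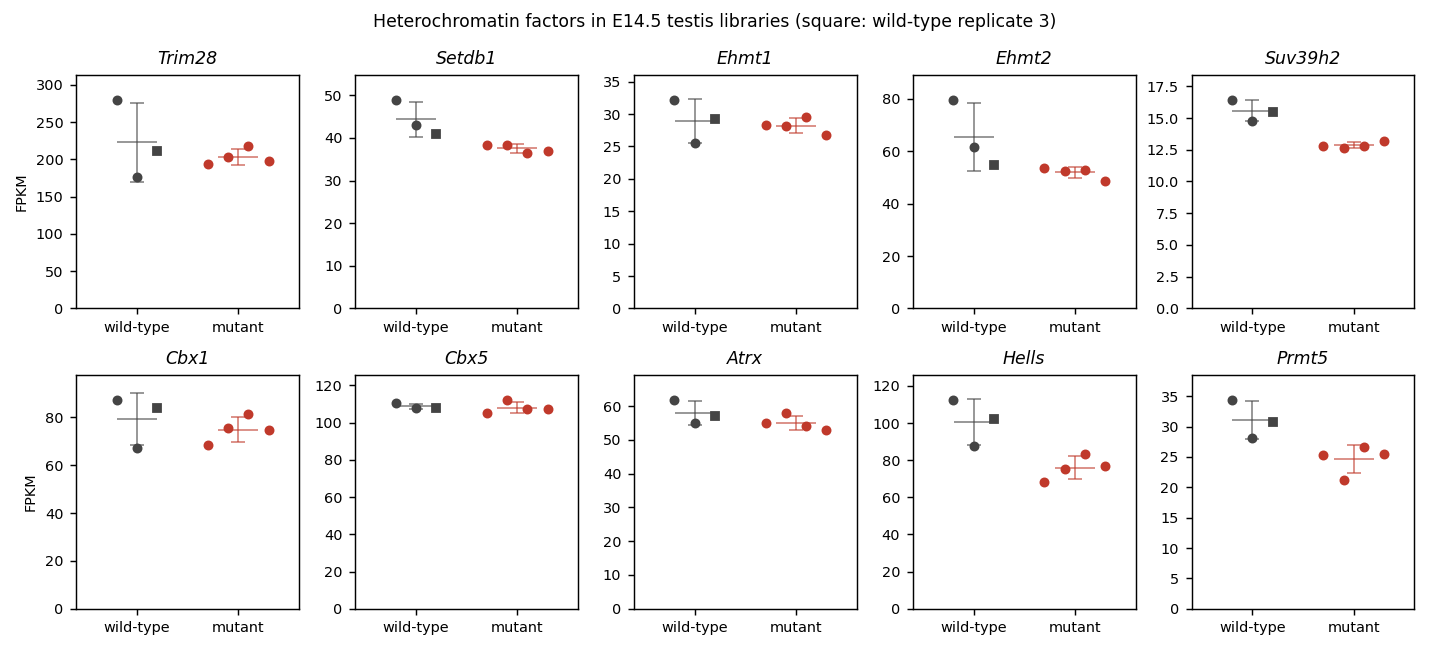
FPKM of each member in every library, grey for wild-type (n = 3) and red for mutant (n = 4), with the mean and SD as horizontal and vertical lines; the square is the library labelled wild-type replicate 3. Hells, Prmt5, Ehmt2, Suv39h2 and Setdb1 show all 4 mutant libraries below the 3 wild-type libraries, while the groups overlap in the other 5.

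Hells had the largest difference of the 10. Its level was 112.5, 87.6 and 102.1 FPKM in wild-type and 68.3, 75.3, 83.3 and 76.7 FPKM in mutant libraries, in replicate order here and below. The lowest wild-type library stood above the highest mutant, and the library labelled wild-type replicate 3 was well inside the wild-type range. The mean went from 100.7 ± 12.5 (SD, n = 3) to 75.9 ± 6.17 FPKM (SD, n = 4), a log2 fold change of -0.40 (SE 0.10) or 24.3% less, with a limma adjusted p of 0.17. Atrx, the other remodeller, had 61.8, 55.1 and 56.9 FPKM in wild-type and 54.9, 57.8, 54.0 and 52.9 FPKM in mutant libraries, so its groups overlapped (log2 fold change -0.08, 95% interval -0.22 to 0.07, limma adjusted p = 0.57).

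Prmt5, the arginine methyltransferase, had 34.4, 28.1 and 30.7 FPKM in wild-type and 25.4, 21.2, 26.6 and 25.5 FPKM in mutant libraries. Here too the groups were apart, and the library labelled wild-type replicate 3 was the middle one of its group. The log2 fold change was -0.33 (SE 0.10), with a limma adjusted p of 0.19.

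The SUV39 enzyme Suv39h2 showed the tightest groups of the lower members. It had 16.5, 14.8 and 15.5 FPKM in wild-type and 12.8, 12.6, 12.8 and 13.2 FPKM in mutant libraries. The mutants spanned less than 1 FPKM, and all of them lay below the lowest wild-type library (log2 fold change -0.26, SE 0.06, limma adjusted p = 0.17). Suv39h2 lies opposite Dclre1c, which overlaps it by 8315 bases, and without strand the reads of the shared part cannot be told apart.

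Among the writers recruited by zinc finger proteins, Setdb1 was lower and its recruiter Trim28 was not clearly so. Setdb1 had 49.0, 43.0 and 41.0 FPKM in wild-type and 38.4, 38.4, 36.5 and 37.0 FPKM in mutant libraries (log2 fold change -0.23, SE 0.07, limma adjusted p = 0.19). Its groups did not overlap, although the library labelled wild-type replicate 3 was the lowest of the wild-type libraries. Trim28 had 280.2, 176.0 and 211.9 FPKM in wild-type and 193.5, 202.6, 218.5 and 198.2 FPKM in mutant libraries. The wild-type libraries lay on both sides of the mutants, and the log2 fold change of -0.11 (95% interval -0.43 to 0.21) became 0.07 without wild-type replicate 1.

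The H3K9 dimethyl dimer showed unequal values. Ehmt2 had 79.7, 61.7 and 54.7 FPKM in wild-type and 53.5, 52.5, 53.0 and 48.9 FPKM in mutant libraries, a log2 fold change of -0.31 (SE 0.12, limma adjusted p = 0.24). The groups did not overlap, but the library labelled wild-type replicate 3 was within 2 FPKM of the highest mutant. Leaving that library out gave a log2 fold change of -0.43 and leaving out wild-type replicate 1 gave -0.16. Ehmt1 had 32.2, 25.5 and 29.2 FPKM in wild-type and 28.2, 28.1, 29.6 and 26.8 FPKM in mutant libraries, which overlapped (log2 fold change -0.03, 95% interval -0.23 to 0.16, and 0.05 without wild-type replicate 1).

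The HP1 readers overlapped between genotypes. Cbx5 had 110.3, 108.1 and 107.6 FPKM in wild-type and 105.0, 112.2, 107.4 and 107.4 FPKM in mutant libraries, the closest agreement of the 10 genes (log2 fold change -0.01, 95% interval -0.13 to 0.11, and 0.00 without wild-type replicate 1 or mutant replicate 1). Cbx1 had 87.3, 67.0 and 84.0 FPKM in wild-type and 68.5, 75.4, 81.3 and 74.6 FPKM in mutant libraries, with the lowest value in a wild-type library (log2 fold change -0.08, 95% interval -0.31 to 0.15).

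Exact two-sided permutation tests over the 7 libraries gave p = 0.029 for each of the 5 lower members, the smallest value that 35 splits allow, and p = 0.20 to 0.80 for the other 5. A gene whose groups do not overlap has a p at or next to that floor by construction. For the 5 lower members this p therefore adds nothing to the lack of overlap. Without the library labelled wild-type replicate 3, the fit kept the sign of all 10 members and gave limma adjusted p-values of 0.057 for Ehmt2, 0.064 for Setdb1, 0.081 for Suv39h2, 0.096 for Hells and 0.14 for Prmt5, so again 0 of 10 passed, while 3.99% of all genes tested (560 of 14019) were called lower in that fit.

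Germ cell markers were lower on average in the mutants, but their means overlapped between the groups. The library labelled wild-type replicate 3 had a marker mean of 3.70, inside the mutant range of 3.44 to 4.16. The lower members were picked for having every wild-type library above every mutant. This library therefore lies above the mutants in all of them by selection. Within the wild-type group, its Hells (102.1 FPKM), Suv39h2 (15.5) and Prmt5 (30.7) values were each above at least 1 other library. Its Setdb1 (41.0 FPKM) and Ehmt2 (54.7) values were the lowest of that group. The 16 cell cycle genes, which include Mki67 and the Mcm helicase subunits, had a mean of 6.07 ± 0.09 (SD, n = 3) in wild-type and 6.06 ± 0.02 (SD, n = 4) in mutant libraries, and 8 were lower and 8 higher. All 8 fetal Leydig cell markers were higher in the mutants, with summed levels of 1731 to 2805 FPKM in wild-type and 2664 to 3256 FPKM in mutant libraries, as were all 7 macrophage markers tested, with 32.7 to 40.4 and 40.6 to 53.0 FPKM. All 7 interstitial markers were higher too, with sums of 548 to 668 and 620 to 783 FPKM. None of the markers of these 3 lists had a limma adjusted p under 0.05. The paper reports Leydig cell differentiation as unaffected, from Cyp11a1 by qPCR at a later stage. The part of these cell types in the members' values was not tested.

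**Figure D2:**
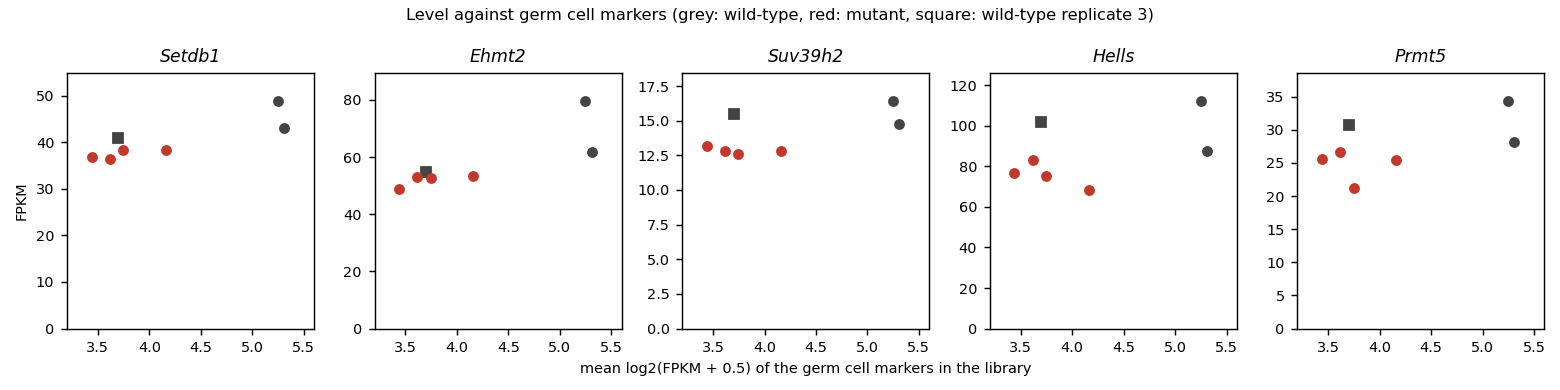
FPKM of the 5 lower members (vertical axis) against the mean log2(FPKM + 0.5) of 16 germ cell markers in the same library (horizontal axis), grey for wild-type and red for mutant. The library labelled wild-type replicate 3 (square) has a marker mean of 3.70, inside the mutant range. It sits above every mutant in all 5 genes by selection, because the genes were picked for groups that do not overlap. In proportion to the level, its gap to the mutants is larger in Hells, Suv39h2 and Prmt5 than in Setdb1 and Ehmt2.

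A separate readout of the same genes came from the table of repeat loci. Reads on LINE, SINE and LTR copies that lie wholly in introns of a single gene were summed for each member, since such reads can come from RNA before splicing. Without strand, reads from transcription of the element itself cannot be told apart from these. In Ehmt1, MERVL_2A-int copies averaged 129.7 and 54.9 reads, in sums of 654 to 1013 reads a library. The level of a sum is given as CPM, counts scaled to 1000000 of such intronic reads in the library. In edgeR over 11557 genes, 0 of 10 members had an adjusted p under 0.05, where 0.199% of genes did (23 genes, with 1389 at an unadjusted p under 0.05 and 34 called by DESeq2). Glis3 was among them, at 358, 291 and 213 CPM in wild-type and 177, 166, 178 and 123 CPM in mutant libraries (log2 fold change -0.84, SE 0.15, edgeR adjusted p = 0.035). Unlike by FPKM, the library labelled wild-type replicate 3 was here above every mutant, though the lowest of its group.

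Hells, with the largest difference by FPKM, was near equal between genotypes in its introns. Its 102 intronic loci held 330, 283 and 348 CPM in wild-type and 310, 328, 306 and 299 CPM in mutant libraries, which overlapped (log2 fold change -0.05, SE 0.09, edgeR adjusted p = 0.89, from 518 to 834 reads a library). Prmt5 had 35.6, 24.6 and 34.5 CPM in wild-type and 37.9, 38.9, 31.9 and 38.5 CPM in mutant libraries on 13 loci (log2 fold change 0.21, SE 0.17, edgeR adjusted p = 0.70, 45 to 90 reads a library). Counting all repeat loci inside the gene in place of intronic ones turned the Prmt5 value to -0.18. Leaving out wild-type replicate 2 took the intronic Prmt5 value to 0.07. A single B3 copy averaged 28.4 of the Prmt5 reads a library.

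Setdb1 was the single member whose intronic groups did not overlap, with 127, 137 and 131 CPM in wild-type and 116, 126, 121 and 115 CPM in mutant libraries (log2 fold change -0.14, SE 0.09, edgeR adjusted p = 0.60), where 4.78% of genes were lower without overlap. Cbx1 was the single member at an unadjusted p under 0.05, with 132, 96.8 and 119 CPM in wild-type and 94.7, 101, 97.9 and 95.6 CPM in mutant libraries (log2 fold change -0.26, SE 0.11, edgeR adjusted p = 0.37). Leaving out wild-type replicate 1, wild-type replicate 3, mutant replicate 1 or mutant replicate 4 left 0 members at an unadjusted p under 0.05. Trim28 (log2 fold change -0.27, SE 0.20), Ehmt2 (-0.13, SE 0.16), Cbx5 (-0.13, SE 0.12), Ehmt1 (-0.03, SE 0.09) and Atrx (0.03, SE 0.09) overlapped between groups. The Trim28 locus with the most reads, a B2_Mm1a copy averaging 27.9, lies upstream of the RefSeq gene, inside the longer GENCODE gene. The Trim28 sum, of 53 to 125 reads a library, therefore covers more than the region behind its FPKM. Suv39h2 has 5 intronic loci with 8 to 38 reads a library, too few to show a difference of the size seen by FPKM. Without the library labelled wild-type replicate 3 the intronic fold change was 0.02 for Hells, 0.27 for Prmt5, -0.14 for Setdb1 and -0.24 for Cbx1, and 0 of 10 members were called.

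**Figure D3:**
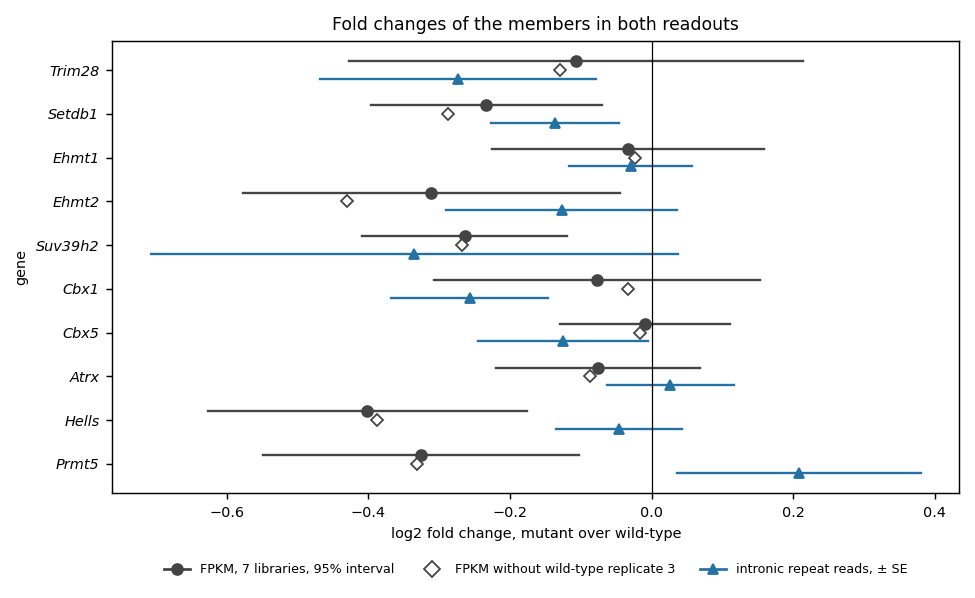
Log2 fold change, mutant over wild-type, of the 10 members by FPKM (circles, with 95% intervals), by FPKM without the library labelled wild-type replicate 3 (open diamonds) and by intronic repeat reads (triangles, ± SE). Hells and Prmt5 are at -0.40 and -0.33 by FPKM and at -0.05 and 0.21 by intronic reads.

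The difference between the readouts was then taken within each library, as log2(FPKM + 0.5) minus log2 intronic CPM, for the 9567 genes that had both; this comparison was added after the values above had been seen. For Hells it was -1.55, -1.69 and -1.77 in wild-type and -2.18, -2.12, -1.87 and -1.96 in mutant libraries. For Prmt5 it was -0.07, 0.16 and -0.19 in wild-type and -0.59, -0.88, -0.28 and -0.60 in mutant libraries. In both genes all mutants were below all wild-type libraries, as in 3.69% of genes. Both genes were already apart by FPKM, which enters this difference. Their separation here is therefore partly set beforehand, and the share over all genes is not a like reference. The mutant minus wild-type difference was -0.36 (SE 0.13) for Hells and -0.55 (SE 0.17) for Prmt5, and both had a limma adjusted p of 0.67. Without the library labelled wild-type replicate 3 the differences were -0.41 and -0.63. Of all 9567 genes, limma called 0% at an adjusted p under 0.05 and 688 genes at an unadjusted p under 0.05. Both genes had an unadjusted p under 0.05, and 1 of them did without wild-type replicate 1, mutant replicate 1 or mutant replicate 2. Cbx1 differed the other way, at -0.59, -0.53 and -0.51 in wild-type and -0.47, -0.43, -0.28 and -0.36 in mutant libraries, again without overlap (difference 0.16, SE 0.13, limma unadjusted p = 0.25, adjusted p = 0.81). The share of all genes higher without overlap is not given for this difference, so nothing is read from the Cbx1 gap. The other 7 members overlapped.

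Ratios within a library do not depend on how libraries were scaled, and 6 pairs were compared by exact two-sided permutation tests with adjustment over the 6. The largest difference was in the dimer Ehmt1 and Ehmt2. Its log2 ratio was -1.29, -1.26 and -0.89 in wild-type and -0.91, -0.89, -0.83 and -0.86 in mutant libraries. Wild-type replicates 1 and 2 stood apart, and the library labelled wild-type replicate 3 was at the mutant level (difference 0.28, exact permutation p = 0.057, adjusted p = 0.26). Suv39h2 over Suv39h1, the paralog with the same activity, differed by -0.16 (exact permutation p = 0.086, adjusted p = 0.26). Setdb1 over Trim28 differed by -0.13, Prmt5 over its partner Wdr77 by -0.12, Cbx5 over Cbx1 by 0.07 and Atrx over Daxx by 0.01, with exact permutation p-values of 0.29 to 0.97. With 35 splits the smallest p is 0.029, so a single pair that stood apart could not have passed 0.05 after adjustment over 6. Without the library labelled wild-type replicate 3 the differences were 0.41 for Ehmt1 over Ehmt2, -0.18 for Suv39h2 over Suv39h1, -0.16 for Setdb1 over Trim28, -0.09 for Prmt5 over Wdr77, 0.02 for Cbx5 over Cbx1 and -0.09 for Atrx over Daxx.

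Partners of the members and the H3K9 demethylases that oppose them were taken from a list of 52 genes in the table, of which 50 passed the filter on low values. Of 43 partners tested, 32 were lower and 11 higher, with a median log2 fold change of -0.08. At an unadjusted p under 0.05, 8 of 43 partners were lower and 3 of 43 higher, and 3 of 7 demethylases were lower, against 8.79% of all genes lower and 8.21% higher. The 3 higher partners are a share near that of all genes. None had a limma adjusted p under 0.05. Without the library labelled wild-type replicate 3, 5 genes did, all lower (Mphosph8, Coprs, Kdm1a, Kdm1b and Kdm3a), in a fit that called 3.99% of all genes lower. Without wild-type replicate 1 the 11 lower genes at an unadjusted p fell to 4, and without mutant replicate 4 to 6. Daxx was the one named partner whose sign turned without the library labelled wild-type replicate 3.

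The HUSH complex, which works with SETDB1 on evolutionarily young L1 elements, had all 4 of its listed genes below 0, and 3 at an unadjusted p under 0.05, against 8.79% of all genes lower. Without wild-type replicate 1 only Pphln1 of the 4 had an unadjusted p under 0.05, at a log2 fold change of -0.19, and with the replicate number as a block Morc2a did not. Pphln1, encoding periphilin, had 18.0, 14.95 and 13.6 FPKM in wild-type and 12.5, 11.8, 12.6 and 12.8 FPKM in mutant libraries, without overlap (log2 fold change -0.30, SE 0.10). Morc2a, encoding the effector ATPase, had 22.2, 20.6 and 18.3 FPKM in wild-type and 17.7, 18.1, 17.8 and 16.0 FPKM in mutant libraries, also without overlap (log2 fold change -0.22, SE 0.08). Mphosph8, encoding the chromodomain subunit MPP8, had 38.7, 39.6 and 24.7 FPKM in wild-type and 25.3, 24.0, 24.6 and 22.3 FPKM in mutant libraries. The first 2 wild-type libraries were far above the mutants, and the library labelled wild-type replicate 3 was inside the range of the mutants. The Mphosph8 log2 fold change was -0.47 (SE 0.15, limma adjusted p = 0.21) in all libraries and -0.69 (limma adjusted p = 0.0064) without that library, and it was -0.37 (limma adjusted p = 0.46) without wild-type replicate 1. Fam208a, encoding the scaffold TASOR, had overlapping groups (log2 fold change -0.03, and 0.00 without wild-type replicate 1).

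Around PRMT5, the cofactor gene Coprs had the largest difference of the partners whose groups did not overlap. Coprs had 108.3, 117.6 and 86.8 FPKM in wild-type and 72.6, 65.9, 76.2 and 73.8 FPKM in mutant libraries. Every mutant was below 77 FPKM, and the library labelled wild-type replicate 3 lay between the groups (log2 fold change -0.52, SE 0.11, limma adjusted p = 0.15, and 0.0080 without that library, and 0.35 without wild-type replicate 1). The methylosome subunits Wdr77 (log2 fold change -0.21, SE 0.09) and Clns1a (-0.10, SE 0.07) overlapped between groups, and Wdr77 was at -0.09 without wild-type replicate 1. Prdm1, encoding the BLIMP1 repressor that PRMT5 joins in germ cells, had 4.59, 1.74 and 2.53 FPKM in wild-type and 1.26, 1.53, 1.89 and 1.55 FPKM in mutant libraries (log2 fold change -0.67, SE 0.25, limma adjusted p = 0.24). The Prdm1 value was -0.35 without wild-type replicate 1 and -0.94 without wild-type replicate 2.

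Of the other H3K9 writers, Setdb2 had 6.15, 6.03 and 5.09 FPKM in wild-type and 4.69, 5.21, 4.57 and 4.53 FPKM in mutant libraries. Its groups overlapped by mutant replicate 2 alone, with a log2 fold change (-0.25, SE 0.09, limma adjusted p = 0.25), and stood at -0.33 without the library labelled wild-type replicate 3. Suv39h1 (log2 fold change -0.10, SE 0.08), the HP1-gamma gene Cbx3 (-0.03, SE 0.09), the SETDB1 partner Atf7ip (-0.09, SE 0.11) and the G9a partner Wiz (-0.09, SE 0.11) all overlapped between groups. Cbx3 turned positive without wild-type replicate 2 or mutant replicate 3. Hdac2, a histone deacetylase, was lower in every mutant library by a small margin (log2 fold change -0.08, SE 0.06). Pias4, a SUMO ligase, had 13.9, 10.6 and 10.9 FPKM in wild-type and 8.91 to 9.44 FPKM in mutant libraries (log2 fold change -0.34, SE 0.10, and -0.22 without wild-type replicate 1). Cbx3, H3f3a and Sumo2 have processed copies elsewhere in the genome, so their values are uncertain, and Sumo2 at a mean of 0.05 FPKM in mutants and 0.10 FPKM in wild-type did not enter the test.

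Among the 50 tested, 3 genes had all mutant libraries above the highest wild-type library, where 7.31% of all genes were. Cdyl, encoding a chromodomain protein that binds G9a, had 18.1, 19.0 and 17.1 FPKM in wild-type and 20.8, 21.9, 20.2 and 21.4 FPKM in mutant libraries (log2 fold change 0.22, SE 0.06, limma adjusted p = 0.19). Uhrf1, which recruits DNMT1 to hemimethylated DNA, had 45.0, 39.2 and 44.6 FPKM in wild-type and 54.6, 52.4, 47.9 and 45.6 FPKM in mutant libraries (log2 fold change 0.22, SE 0.08). H3f3b, encoding histone H3.3, had 498, 492 and 502 FPKM in wild-type and 561, 586, 536 and 549 FPKM in mutant libraries (log2 fold change 0.16, SE 0.07, and 0.06 with quantile normalization). The second H3.3 gene, H3f3a, was at 0.18 (SE 0.09) with overlap, at 0.09 with quantile normalization and at 0.09 without wild-type replicate 1. The H3.3 chaperone Daxx (log2 fold change -0.09, SE 0.14, and 0.00 without the library labelled wild-type replicate 3), the CAF-1 subunit Chaf1a (-0.03, SE 0.09), the remodeller Smarcad1 (-0.13, SE 0.07), the HELLS activator Cdca7 (0.02, SE 0.09) and Dnmt1 (-0.08, SE 0.12) overlapped between groups. Without wild-type replicate 1 Chaf1a and Dnmt1 were each at 0.07, and without wild-type replicate 2 Cdca7 was at -0.08.

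Of the enzymes that remove H3K9 methylation, Kdm3a had 33.9, 38.2 and 28.1 FPKM in wild-type and 26.4, 26.3, 23.8 and 24.3 FPKM in mutant libraries, without overlap (log2 fold change -0.39, SE 0.10, limma adjusted p = 0.18). Kdm1a, encoding LSD1, had 67.8, 57.1 and 50.1 FPKM in wild-type and 48.1, 48.2, 49.6 and 45.1 FPKM in mutant libraries, where the library labelled wild-type replicate 3 was within 1 FPKM of the highest mutant (log2 fold change -0.28, SE 0.10, limma adjusted p = 0.22). Without that library the limma adjusted p was 0.016 for Kdm3a and 0.046 for Kdm1a. Without wild-type replicate 1 it was 0.39 for Kdm3a and 0.46 for Kdm1a, whose log2 fold change was then -0.16.

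**Figure D4:**
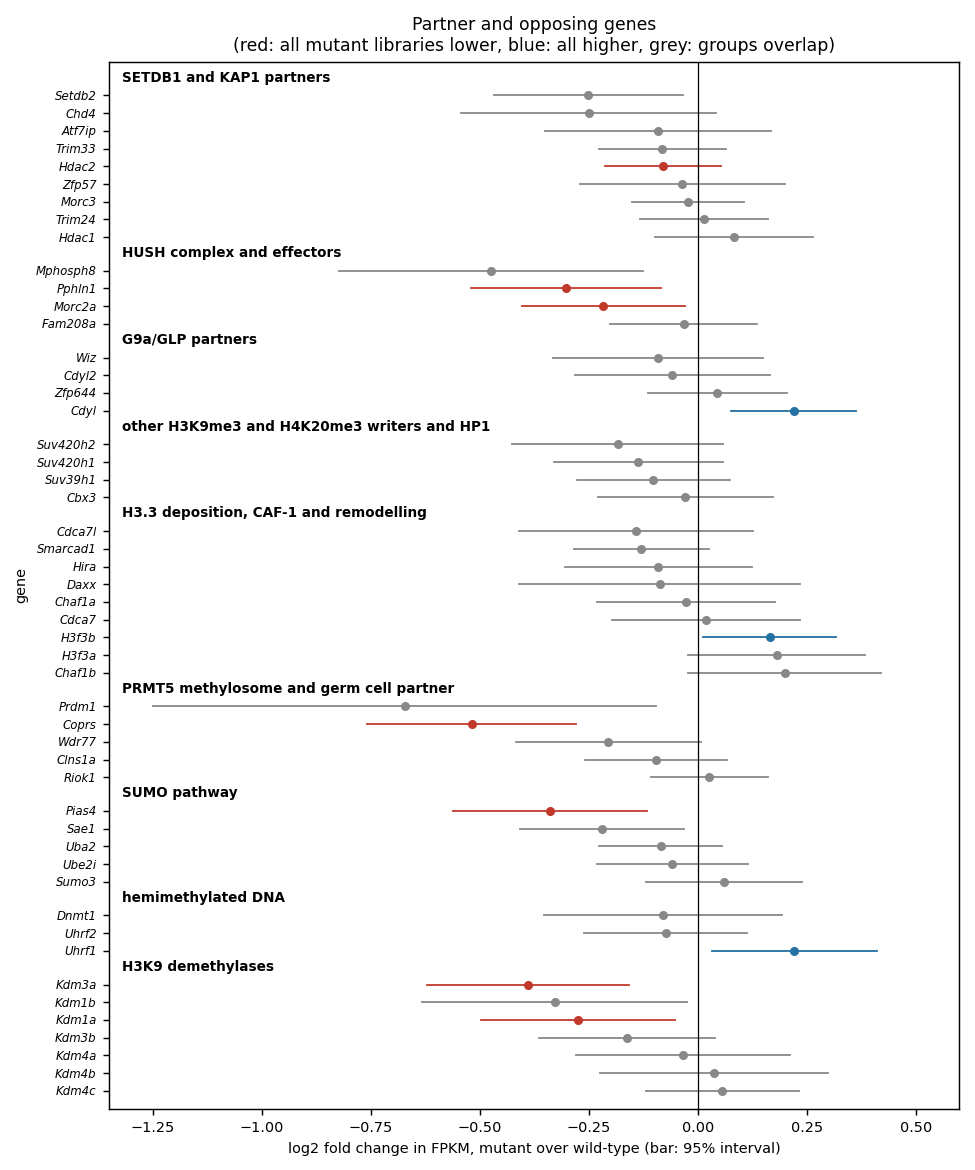
Log2 fold change in FPKM, mutant over wild-type, of 50 partner and opposing genes grouped by role, with 95% intervals. Red genes have all mutant libraries under the lowest wild-type library (among them Coprs at -0.52, Pphln1 at -0.30 and Kdm3a at -0.39), blue genes have every mutant library above (Cdyl, Uhrf1 and H3f3b), and the groups of grey genes overlap.

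The retrotransposons that these factors silence in other cells were summed over all their loci, here in CPM over all repeat reads. The paper kept only uniquely mapped reads for repeat loci, so reads that fit several copies are absent from these sums. The sums therefore need not follow the level of a whole group. None of 8 groups had an edgeR adjusted p under 0.05 in the fit of all 803 repeat names, where 0.125% of names did (1 name, with 137 at an unadjusted p under 0.05 and 24 called by DESeq2). The young L1 group L1Md_T had 1486, 1539 and 1556 CPM in wild-type and 1735, 1622, 1933 and 1940 CPM in mutant libraries, the one group without overlap (log2 fold change 0.24, SE 0.06, edgeR adjusted p = 0.14). The share of all repeat names without overlap is not given here, so how unusual such a gap is remains unknown. The L1Md_T value depended on the loci summed. Over loci outside annotated genes the log2 fold change was 0.60 (edgeR adjusted p = 0.012), and over loci averaging 1 read or more it was 0.03 (edgeR adjusted p = 0.85). Over all loci the adjusted p was 0.014 by DESeq2, 0.20 without the library labelled wild-type replicate 3, and 0.027 to 0.33 over all fits that left out a library, where only the one without mutant replicate 2 passed. ETn and MusD elements (log2 fold change 0.21, SE 0.08) and L1Md_A (0.20, SE 0.07) overlapped between groups. IAP internal sequence, the best known target of TRIM28 and SETDB1, had 7892, 10440 and 11000 CPM in wild-type and 8508 to 10110 CPM in mutant libraries (log2 fold change -0.10, SE 0.10). By qPCR at a later stage, the paper reports IAP and L1 transcripts raised in the mutants, which is another stage and measure. For single loci at this stage, it reports that most of those changed were higher. IAP LTR (-0.08, SE 0.11), MMERVK10C (-0.17, SE 0.12), MERVL (0.04, SE 0.04) and L1Md_Gf (0.11, SE 0.10) overlapped as well. Without wild-type replicate 2 IAP LTR was at 0.09 and MMERVK10C at 0.05. Without the library labelled wild-type replicate 3 the log2 fold changes were 0.00 for IAP internal sequence, -0.13 for IAP LTR, 0.22 for ETn and MusD, 0.02 for MERVL, -0.26 for MMERVK10C, 0.17 for L1Md_A, 0.26 for L1Md_T and 0.04 for L1Md_Gf, and none was called. Whether these values follow from those of the members was not tested.

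**Figure D5:**
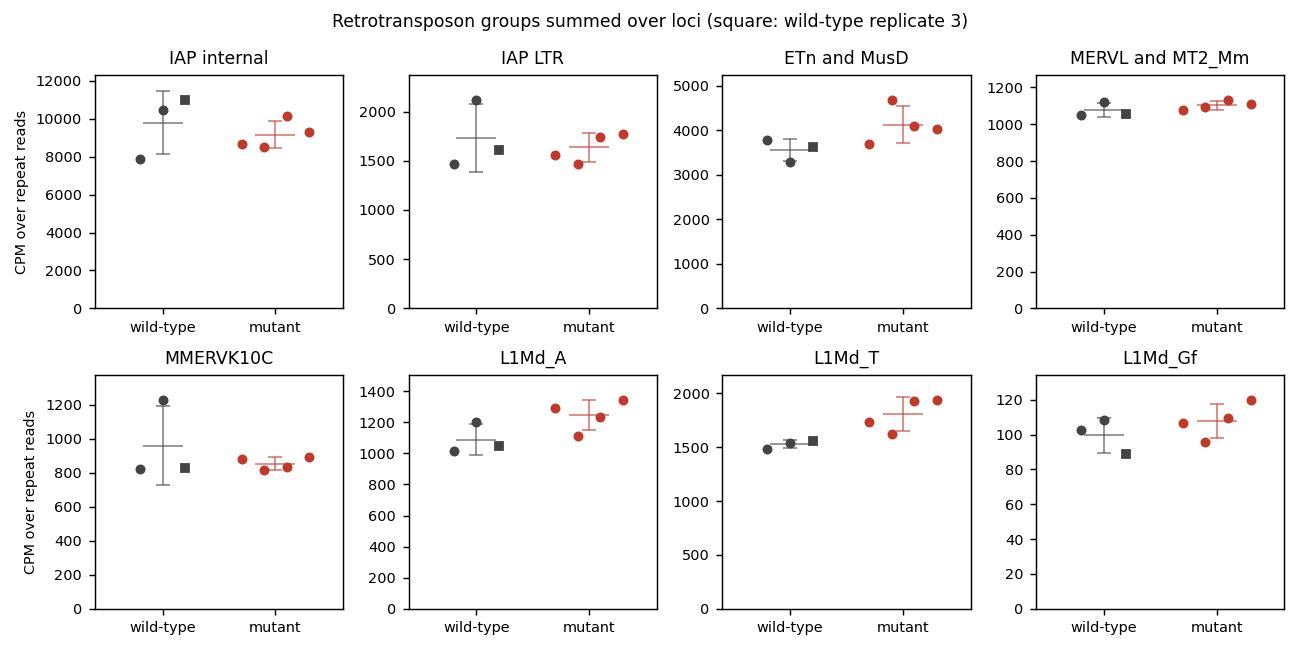
CPM over all repeat reads of 8 retrotransposon groups in every library, grey for wild-type and red for mutant, with the mean and SD; the square is the library labelled wild-type replicate 3. L1Md_T has all mutant libraries (1622 to 1940) above all wild-type libraries (1486 to 1556), and the other groups overlap. The share of all repeat names without overlap is not given.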

How the data were processed

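RNA-seq was done on 7 libraries of mouse testis at embryonic day 14.5 (3 wild-type, 4 mutant, each a separate embryo). Per the methods and labels, the authors aligned reads to mm10 with TopHat2 (2.0.12, unstranded, up to 10 hits), and the deposited FPKM per RefSeq gene came from Cuffnorm. The deposited counts are raw reads per RepeatMasker locus from HTSeq, for which the paper kept only uniquely mapped reads. Header lines lacked the tab between the third wild-type and the first mutant name, so columns were read in the order named; 0 columns were left out. The FPKM table carries no read counts, so its depth is unknown; repeat reads numbered 3454317 to 4670830 a library, and summed FPKM 694243 to 1018678.

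FPKM were tested as log2(FPKM + 0.5) with limma (3.58.1, trend) over genes averaging 0.5 FPKM or more, two-sided, Benjamini-Hochberg at 0.05; limma stood in for the authors' Cuffdiff, which needs reads. Fold changes on this scale understate those of low genes. Counts were summed over loci wholly in introns of a single GENCODE M21 gene (genes with a mean of at least 10 reads) and over repeat names, and tested with edgeR (4.0.16, quasi-likelihood, TMM), with DESeq2 (1.42.0) as an alternative. Scripts were tested on simulated data. The members and lists were chosen with earlier results of these data known. Named genes were all members, 22 set partners where present (Copr5 was not found), any other listed gene whose groups do not overlap, and Glis3; Kdm1b, Setdb2 and Sumo2 were added after values were seen. Other alternatives were pseudocounts, filters, centring, quantile normalization, array weights, the replicate number as a block and each library left out.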

Additional observations from a re-analysis of the deposited data

Results flagged for a closer look

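Groups of 4 libraries were searched for a value whose gap to its neighbour exceeded the limit of Dixon's test at the 95% level, in 70 tests, and chance flags about 1 in 20 such groups. One value stood out: the intronic repeat reads of Prmt5 in mutant replicate 3, at 31.86 CPM, against 37.89 to 38.85 CPM in the other 3 mutant libraries.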

How the results depend on the processing

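Under every alternative run, 0 of 10 members had an adjusted p under 0.05, and Setdb1, Ehmt2, Suv39h2, Cbx1, Atrx, Hells and Prmt5 kept a log2 fold change below 0 by FPKM. The depth behind FPKM is unknown, a dropped wild-type library leaves 2, and the intronic sums of Suv39h2 are too shallow to weigh. No cause of the shifts listed here was tested.

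Over the fits that leave out 1 library each, the log2 fold change by FPKM ran from -0.26 to 0.072 for Trim28, from -0.12 to 0.045 for Ehmt1 and from -0.028 to 0.0041 for Cbx5, which was at 0.0028 with centring on the median. It ran from -0.081 to 0.0021 for Fam208a, from -0.069 to 0.025 for Cbx3, from -0.21 to 9e-04 for Daxx, from -0.12 to 0.065 for Chaf1a, from -0.079 to 0.085 for Cdca7 and from -0.22 to 0.067 for Dnmt1. The number of partner and opposing genes at an adjusted p under 0.05 ran from 0 to 5, those lower at an unadjusted p from 4 to 13 and those higher from 1 to 4, with 1 higher under array weights. The ratio of Setdb1 to Trim28 differed by -0.23 to 0.010 and that of Atrx to Daxx by -0.089 to 0.13. By intronic reads the fold change ran from -0.089 to 0.0045 for Ehmt1, from -0.62 to 0.15 for Suv39h2, from -0.036 to 0.075 for Atrx and from -0.13 to 0.016 for Hells, and 0 to 1 members were lower at an unadjusted p, with 0 under DESeq2. Over all loci inside the gene Cbx5 was at 0.11 and Prmt5 at -0.18, and with no filter Atrx was at -0.0062. Among retrotransposons, IAP LTR ran from -0.19 to 0.089 and MMERVK10C from -0.27 to 0.049, 0 to 1 groups were called, and 1 was called under DESeq2 and outside annotated genes. L1Md_Gf was at -0.039 over the loci averaging 1 read or more. Of the differences between FPKM and intronic reads, 1 to 2 members were lower at an unadjusted p.

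Same-numbered libraries of the 2 genotypes deviated together with correlations of 0.20, -0.18 and 0.23 for numbers 1 to 3, and the labels do not say that a number marks a litter or batch, so the numbers were not taken as a pairing. With the replicate number as a block, 0 members were called, 5 were still lower at an unadjusted p by FPKM, 7 partner and opposing genes were lower at an unadjusted p, and 0 members were lower at an unadjusted p by intronic reads.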
